A study of Mus musculus with 18 samples.

Results

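Memory CD8 T cells kept for 20 hours in IL-4 and IL-7 together were set against memory CD8 T cells taken straight from the spleen. The comparison used 6 of the 18 arrays of the series, chosen by their titles: 2 arrays of memory cells with both cytokines and 4 arrays of memory cells ex vivo. Each array was an Affymetrix mouse expression array, and 1 array is 1 sample. The memory cells with both cytokines had IL-4 at 20 ng/mL and IL-7 at 10 ng/mL in the culture medium, and the ex vivo memory cells had neither culture nor cytokine. A further 2 arrays of memory cells with IL-7 alone (10 ng/mL, 20 hours) were needed to say where each gene stood before IL-4 was added. Beside them, 2 arrays of memory cells with IL-4 alone (20 ng/mL), 2 of memory cells in medium, and 6 of naive cells (2 with both cytokines, 2 with IL-7 and 2 ex vivo) entered the same fit, share its estimate of the spread and are used for further comparisons.

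Cells of every group came from F5 mice, whose T cells carry 1 transgenic receptor for a peptide of influenza nucleoprotein, on a background labelled C57Bl/6. The memory cells, called TIM in the labels, were raised by 2 rounds of immunisation with the NP68 peptide and were sorted from spleen by flow cytometry on day 45. They are thus peptide-primed cells of a single specificity, and the sources used here do not give how many mice made up a sorted population. The design text gives 4 sorted memory populations, of which 2 supplied the cultured samples. No label says which population fed which cultured array, so p-values measure the spread between arrays, part of which may be technical.

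IL-7 and IL-4 are both read through receptors that share the common gamma chain. IL-7 keeps resting T cells alive, mainly through STAT5 and BCL2, and IL-4 signals mainly through STAT6, which binds palindromic TTC and GAA half-sites. In mouse CD8 T cells IL-4 is known to raise Eomes and CD8 levels, and memory CD8 T cells are known for carrying ready-made mRNA for cytotoxic and chemokine genes and receptors otherwise found on NK cells.

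All values are log2 signals from the authors' RMA table, with 1 probe set for each gene, and 13769 genes were tested. A gene passed the test when its limma p, adjusted over all 13769 genes by the Benjamini-Hochberg method, was under 0.05. The number of arrays, and no count of reads or molecules, limits the precision. The arrays with both cytokines correlated with each other at 0.99 and with the ex vivo arrays at 0.941 to 0.959, and the ex vivo arrays correlated among themselves at 0.988 to 0.991. The second array labelled memory in medium stood apart from its partner: it correlated with the ex vivo arrays at 0.988 to 0.995 and with the other medium array at 0.956. It is in neither group compared here, but all arrays share 1 estimate of the spread. Among genes past the test between IL-7 and ex vivo, the median SD within the medium pair was 0.68, against 0.12 to 0.22 within the other memory groups. Counts are therefore given with that array and without it.

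The cell type markers were those of CD8 T cells in both groups. Of the 6 CD8 T cell markers tested, Cd8a and Cd8b1 rose with both cytokines, Cd3g fell, and the summed level of the list was 30612 to 31487 linear signal units with both cytokines and 25290 to 27646 ex vivo. The 5 myeloid markers tested summed to 147 to 178 units with both cytokines and 151 to 185 ex vivo, and the 3 of CD4 T cells to 199 to 204 units with both cytokines and 174 to 211 ex vivo. The 5 B cell markers summed to 437 to 537 units with both cytokines and 284 to 391 ex vivo, with Cd79b 0.88 higher and Ms4a1 1.12 lower on the log2 scale. The 3 platelet markers summed to 350 to 405 units with both cytokines and 252 to 341 ex vivo. The 3 NK cell markers, Eomes among them, summed to 574 to 584 units with both cytokines and 103 to 237 ex vivo. The 2 red cell precursor markers spread most, from 157 to 1209 units with both cytokines and from 470 to 4320 ex vivo. A further 4 myeloid markers and 1 each of CD4 T cells, red cell precursors and platelets were under the filter. The part of these cells in the results was not tested. In such bulk samples, fewer cells of a type and less RNA per cell cannot be told apart.

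Memory cells in both cytokines differed widely from memory cells ex vivo. Of the 13769 genes, 3134 passed the test (22.8%), 1843 higher (13.4%) and 1291 lower (9.38%) with both cytokines. The change exceeded 1 log2 unit in 895 of the higher and 658 of the lower genes, and 2 log2 units in 117 of the higher and 160 of the lower genes. Without the second medium array 3854 genes (28%) passed, 2360 higher and 1494 lower. The split by direction depended on scaling: centring each array on its median gave 1315 higher and 1701 lower genes, and cyclic loess gave 1489 higher and 1637 lower. The median change of all genes was 0.05 as deposited, and -0.12 after centring and -0.01 after cyclic loess. With only 1 array left in the group with both cytokines, 1728 genes (without replicate 1) or 864 genes (without replicate 2) still passed.

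The deepest falls were those of immediate early genes, the transcription factors and phosphatases that antigen and stress signals switch on within minutes. Of the 25 tested, 20 fell with both cytokines, against 9.38% of all genes lower, and 1 rose (Ier3, an early-response survival gene, by 1.11). The list's median change was -3.77, beside 0.05 over all genes. Of the 10 largest falls past the test whose groups did not overlap, as those of 46.3% of all genes did not, 7 were on this list, and the other 3 were Sik1, Cdkn1a and Ramp3. In IL-7 alone 22 of the 25 had fallen (8.85% of all genes) and none had risen (11.1%), with a median of -3.60.

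The NR4A nuclear receptors, which T cells raise on receptor signalling, were among the deepest falls. Nr4a1 stood at 5.48 and 6.46 with both cytokines, 5.77 and 5.64 with IL-7 alone and 12.86, 12.57, 12.54 and 12.61 ex vivo. Its change with both cytokines was -6.67 ± 1.38 (SE; 102-fold lower, adjusted p 0.0041). The 4 ex vivo arrays lay far above all others of the groups compared, and the arrays with both cytokines lay around those with IL-7 alone. Nr4a2 read 3.61 and 3.97 with both cytokines, against 11.55, 11.76, 11.92 and 11.85 ex vivo, a change of -7.98 ± 1.69 (SE, adjusted p 0.00467). Both arrays with both cytokines were under the 4.06 used as the filter on low values, so Nr4a2 fell to a signal near the floor and the size of its fall is not a measured fold. Nr4a3 read 6.23 and 5.69 with both cytokines, against 13.72, 13.59, 13.63 and 14.0 ex vivo, and changed by -7.77 ± 1.30 (SE; 219-fold lower, adjusted p 0.0013).

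AP-1 and related factors followed. Fosb, an AP-1 subunit, changed by -6.39 ± 0.82 (SE; 83.9-fold lower, adjusted p 2.68e-04), and Fosl2, another subunit, by -6.28 ± 1.14 (SE; 77.9-fold lower, adjusted p 0.00196). Klf4, a Krüppel-like factor of quiescence, read 7.67 and 7.30 with both cytokines, against 13.15, 12.48, 12.25 and 12.71 ex vivo, and changed by -5.16 ± 0.72 (SE; 35.8-fold lower, adjusted p 4.89e-04). Atf3, a stress-induced factor, changed by -5.20 ± 1.14 (SE; 36.8-fold lower, adjusted p 0.00562), Sik1, a salt-inducible kinase, by -5.66 ± 1.0 (SE; 50.7-fold lower, adjusted p 0.00181), and Cdkn1a, the cell cycle inhibitor p21, by -5.34 ± 1.43 (SE; 40.6-fold lower, adjusted p 0.0156). Ramp3, a partner protein of the calcitonin receptor family, fell by 5.89 on the log2 scale, to 4.64 and 5.51 with both cytokines, against 10.06, 11.66, 11.14 and 11.01 ex vivo. None of these 10 genes passed the test for IL-4 added to IL-7, where their changes ran from -1.94 (Fosb) to 0.32 (Cdkn1a). With only the 3 groups compared in the fit, Nr4a3, Fosb and Sik1 did pass it (adjusted p 0.0131, 0.0387 and 0.00481). Leaving out 1 array with both cytokines ended the call against ex vivo for Nr4a2 (adjusted p 0.0514 without replicate 2), Atf3 (0.0654 without replicate 2) and Cdkn1a (up to 0.0995 without either). The second medium array again read like the ex vivo cells, with Nr4a1 at 12.60 there and 5.51 on the other medium array.

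**Figure D1:**
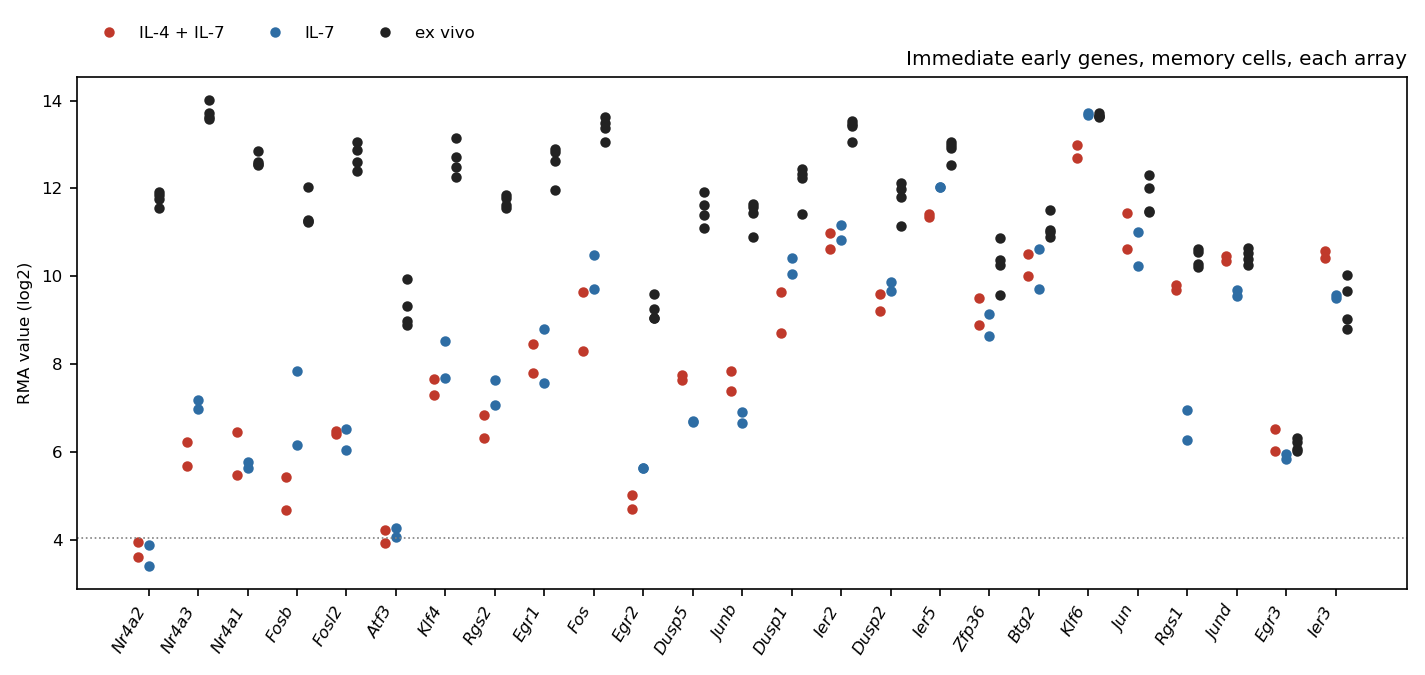
Log2 RMA value of the 25 immediate early genes on each memory array, ordered by their change, with both cytokines in red, IL-7 alone in blue and ex vivo in black. The ex vivo points of Nr4a1 lie at 12.54 to 12.86 and those with both cytokines at 5.48 and 6.46. The dotted line marks the filter on low values, 4.06.

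To separate the genes that ended near the ex vivo level with IL-4 from those it moved away, 3 differences were read for each gene. These were both cytokines minus ex vivo, IL-7 minus ex vivo, and both cytokines minus IL-7, which is the IL-4 effect. The first and second share the 4 ex vivo arrays, and the third is their difference. IL-4 added to IL-7 changed 249 genes (1.81%), 167 up (1.21%) and 82 down (0.596%), and 538 genes (3.91%) without the second medium array, 304 up and 234 down. Each of the 249 was placed by rule. A gene was at the ex vivo level when the 95% interval of its difference between both cytokines and ex vivo lay within 1 log2 unit of 0. Outside that, a gene past the test against ex vivo had started from the ex vivo level (IL-7 alone not past the test against ex vivo), had crossed it (IL-7 alone past the test on the other side) or added to the change already made in IL-7 culture, or had come part way back. The remainder was undetermined.

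Most IL-4 effects led away from the ex vivo level. Of the 249 genes, 156 (62.7%) started from the ex vivo level, 106 up and 50 down, 19 crossed it (15 up, 4 down), 12 added to the IL-7 change (7 up, 5 down), 42 (16.9%) ended at the ex vivo level, 20 were undetermined and none came part way back. Leaving out the second medium array moved this balance: 210 genes started from the ex vivo level, 25 crossed it, 58 added to the IL-7 change, 190 ended at the ex vivo level, 27 came part way back and 28 were undetermined. All 42 genes at the ex vivo level kept that place without the array, as did 144 of the 156 that started from it, 18 of the 19 that crossed and the 12 that added. Of the genes that joined the ex vivo level, 140 had not passed the IL-4 test with the array in and 5 had been undetermined. The share of genes placed at the ex vivo level thus depended on 1 array of a group that is not compared here. This place says where a gene ended, and not that IL-4 held it there. In 15 of the 42, IL-7 alone had not passed the test against ex vivo. Leaving out 1 array with both cytokines or with IL-7 alone left 1 array in that group, and could not check these places. With 1 IL-7 array left, few genes passed against ex vivo. A gene was then placed as started from the ex vivo level by a missed test. Without 1 ex vivo array 6 to 11 genes crossed.

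**Figure D2:**
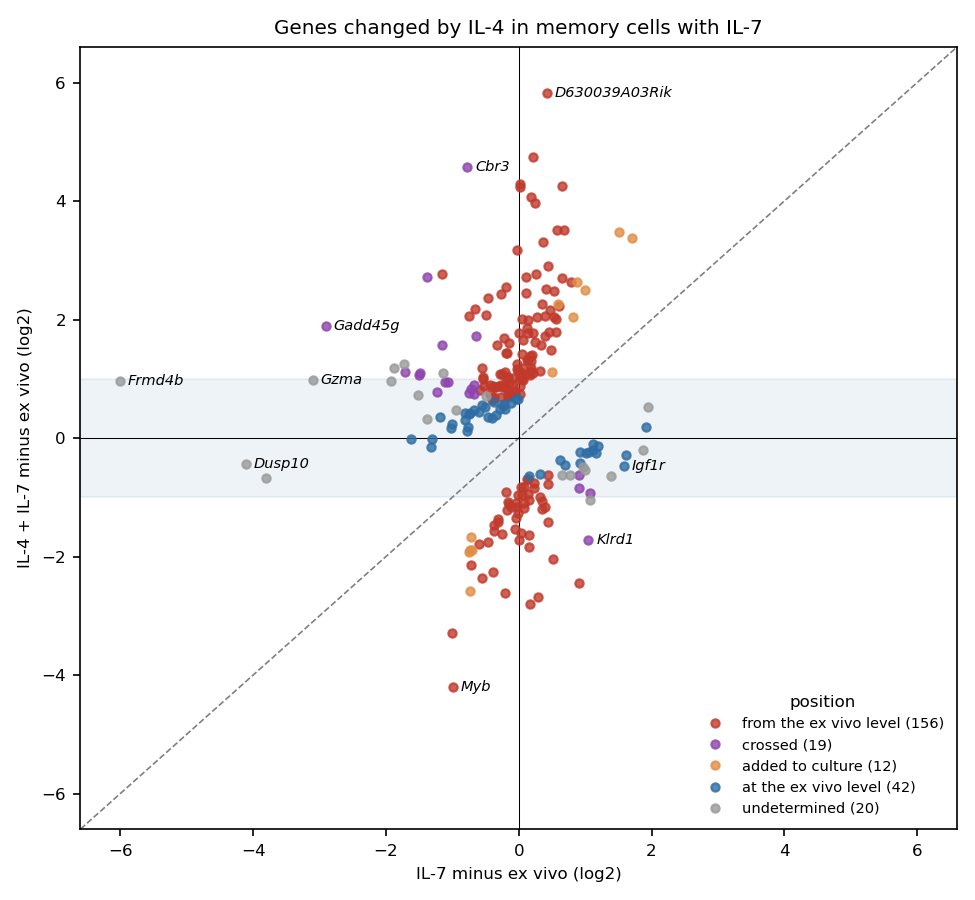
Each point is 1 of the 249 genes past the test for IL-4 added to IL-7 in memory cells, with IL-7 minus ex vivo across and both cytokines minus ex vivo up the page, both in log2 units. Points on the dashed diagonal would show no IL-4 effect, and the band marks 1 log2 unit around the ex vivo level. The 156 genes in red, for which IL-7 alone did not pass the test against ex vivo, reach from -4.20 to 5.83 up the page.

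Among genes that IL-4 drove up from the ex vivo level, Pros1 and Ncoa7 are shown with sequence before their transcription start because the windows hold a STAT6-type site. Pros1 encodes protein S, an anticoagulant cofactor and ligand of TAM receptors, and Ncoa7 a nuclear receptor coactivator. The sequences are RefSeq's for assembly GRCm38.p6, 250 bases up to the annotated start and printed in the direction of transcription. Capitals mark matches to TTCNNNNGAA (STAT6-type) or TTCNNNGAA (STAT5-type), which read the same on both strands. Pros1 is at chr16:62854057-62854306 on the plus strand, with TTCTAAAGAA starting 222 bases before the start and the STAT5-type TTCCAGGAA 92 bases before it. The Ncoa7 window belongs to an internal start at chr10:30655868-30656117 on the minus strand, with TTCAGGAGAA 191 bases before it. The window of another Ncoa7 start, at chr10:30803327-30803576, held neither match. Nor did the windows of D630039A03Rik, Slc2a6, Tafa3, Gm17767 and Cbr3, which are among the largest rises given below.
Pros1: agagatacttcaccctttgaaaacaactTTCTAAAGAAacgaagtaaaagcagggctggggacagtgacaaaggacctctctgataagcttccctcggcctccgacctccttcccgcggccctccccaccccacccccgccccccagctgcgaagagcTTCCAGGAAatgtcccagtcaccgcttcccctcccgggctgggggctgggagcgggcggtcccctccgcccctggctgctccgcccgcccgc
Ncoa7: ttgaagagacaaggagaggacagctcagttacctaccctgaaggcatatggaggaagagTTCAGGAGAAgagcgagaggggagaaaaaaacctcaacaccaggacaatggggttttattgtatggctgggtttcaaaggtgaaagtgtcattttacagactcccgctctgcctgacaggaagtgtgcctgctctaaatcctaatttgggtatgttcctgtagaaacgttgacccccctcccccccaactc

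Such a letter match is a description and not a site shown to be bound. Over windows of 300 bases, the STAT6-type letters stood in 11.8% of 127 windows of genes that IL-4 raised beyond the ex vivo level (103 of 128 genes matched), in 8.62% of 58 windows of genes that IL-4 lowered beyond it (45 of 59 matched), in 6.25% of 48 windows of genes at the ex vivo level (35 of 42 matched), and in 6.95% of 32841 windows of all genes. The STAT5-type letters stood in 8.66%, 5.17% and 12.5% of the same windows, and in 8.3% of all windows. Windows of 1 gene can overlap.

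Pros1 read 10.38 and 9.89 with both cytokines, 5.67 and 5.56 with IL-7 alone and 5.51, 5.46, 5.81 and 4.80 ex vivo. It thus sat at the ex vivo level in IL-7 and far above it on both arrays with IL-4, with a change against ex vivo of 4.74 ± 0.28 (SE; 26.7-fold higher, adjusted p 2.81e-07). Ncoa7 read 12.10 and 11.93 with both cytokines, 8.31 and 8.51 with IL-7 alone and 7.81, 7.36, 7.79 and 8.08 ex vivo, a change of 4.26 ± 0.30 (SE; 19.1-fold higher, adjusted p 1.87e-06). The IL-4 effect, both cytokines minus IL-7, was 4.52 for Pros1 and 3.61 for Ncoa7. D630039A03Rik, an unnamed transcript, had the highest rise of all genes, 5.83 ± 0.22 (SE; 56.9-fold higher, adjusted p 3.36e-09), with 10.37 and 10.23 in both cytokines, 4.97 and 4.82 in IL-7 and 4.59, 4.01, 4.34 and 4.94 ex vivo. Slc2a6, a hexose transporter of the GLUT family, read 8.12 and 8.44 with both cytokines, against 4.29, 3.76, 4.17 and 3.95 ex vivo, and rose by 4.24. Its ex vivo mean and those of Gm4951 and Gm17767 lay under the filter of 4.06, so that the size of their rises (4.29 for Gm4951 and 3.98 for Gm17767) is measured against a signal near the floor. Tafa3, a secreted chemokine-like protein, rose by 4.07, to 9.74 and 8.70 with both cytokines, against 5.33, 4.92, 5.31 and 5.05 ex vivo.

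Of the 10 largest rises, 2 did not pass the test for IL-4 added to IL-7. Etfbkmt, a mitochondrial protein methyltransferase, read 11.05 and 10.88 with both cytokines, 10.49 and 9.92 with IL-7 alone and 6.56, 5.51, 6.01 and 5.89 ex vivo, and Kcna2, a voltage-gated potassium channel, read 9.77 and 10.06 with both cytokines, 8.88 and 8.96 with IL-7 alone and 5.78, 5.54, 6.37 and 5.38 ex vivo. Both stood well above ex vivo in IL-7 already, and their IL-4 effects of 0.76 and 1.0 did not pass the test (adjusted p 0.713 and 0.563). Without the second medium array Kcna2 passed it (adjusted p 0.0389) and Etfbkmt did not (0.218).

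Myb, a transcription factor of progenitor and memory-type lymphocytes, showed the deepest fall of the genes that started from the ex vivo level. It read 7.33 and 8.42 with both cytokines, 10.78 and 11.39 with IL-7 alone and 11.62, 12.29, 12.38 and 12.02 ex vivo, and changed by -4.20 ± 0.48 (SE; 18.4-fold lower, adjusted p 1.27e-04). The IL-7 arrays lay just under the ex vivo range and did not pass the test (-0.99, adjusted p 0.163), while the IL-4 effect was -3.21. Ahnak, a large scaffold protein raised in memory cells, read 7.59 and 7.17 with both cytokines, against 10.73, 10.55, 10.75 and 10.67 ex vivo, a change of -3.29 ± 0.36 (SE; 9.81-fold lower, adjusted p 7.09e-05), with an IL-4 effect of -2.29. The IL-4 calls of Myb and Ahnak were lost without single arrays (adjusted p up to 0.107 without both-cytokine replicate 1 or IL-7 replicate 2 for Myb, and up to 0.114 without both-cytokine replicate 2 or either IL-7 array for Ahnak). Chosen after their values were seen, 2 genes of MHC class II peptide loading moved against each other. H2-DMa read 13.41 and 13.43 with both cytokines, 10.08 and 10.37 with IL-7 alone and 10.49, 10.08, 10.16 and 10.25 ex vivo, and H2-Ob read 6.41 and 6.51 with both cytokines, 9.51 and 9.34 with IL-7 alone and 9.07, 8.93, 9.41 and 9.62 ex vivo. H2-DMa thus rose by 3.17 and H2-Ob fell by 2.80 on the log2 scale, both with IL-7 at the ex vivo level. Of the 9 MHC class II markers tested, which would mark B cells or myeloid cells, H2-DMa rose, H2-Ob and H2-Eb1 fell, and Cd74 and H2-Aa stood at -1.42 and -2.07 without passing the test. Their summed level, H2-DMa included, was 11466 to 11765 units with both cytokines and 2530 to 3315 ex vivo, and their median change was -0.71. The part of such cells in these 2 changes was not tested.

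**Figure D3:**
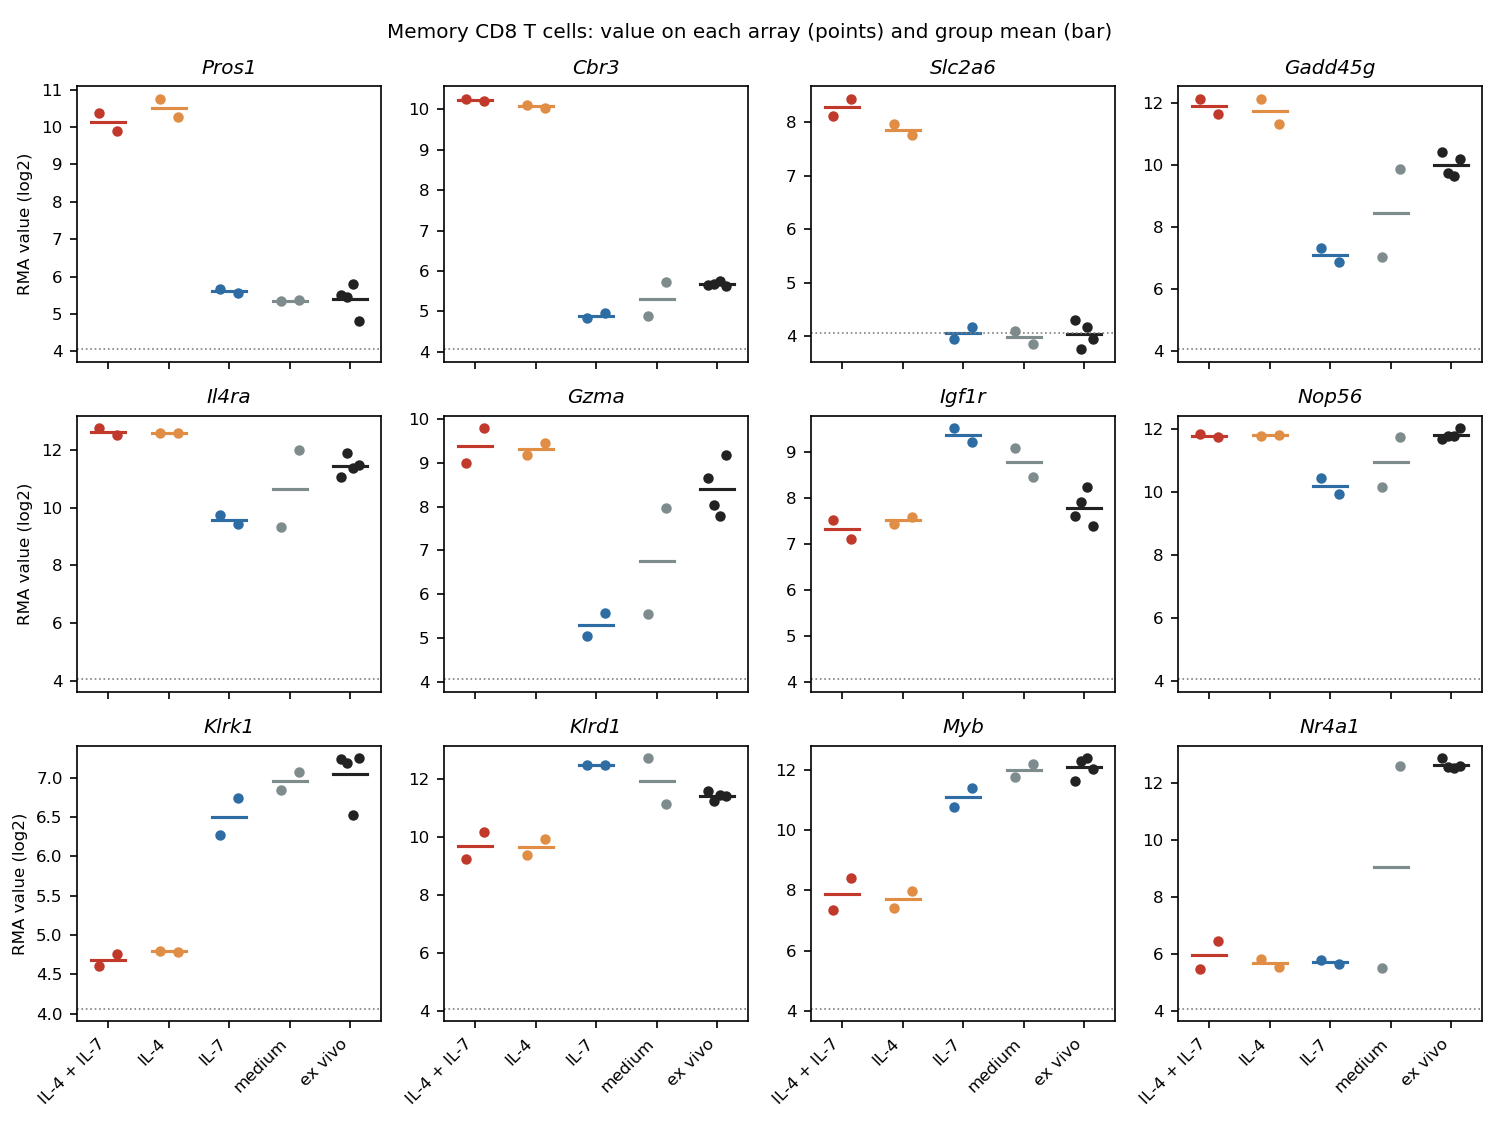
Log2 RMA value of 12 genes on each memory array (points) with the group mean (bar), for both cytokines, IL-4 alone, IL-7 alone, medium and ex vivo from left to right. Pros1, Cbr3 and Slc2a6 are high on the 4 arrays with IL-4 and low elsewhere, Igf1r and Nop56 are moved in IL-7 and back near the ex vivo points with both cytokines, and 1 of the 2 medium points of Nr4a1 and Il4ra lies with the ex vivo points. The dotted line marks the filter on low values, 4.06.

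For 19 genes IL-7 culture moved the level to one side of ex vivo and both cytokines to the other. Cbr3, a carbonyl reductase, read 10.27 and 10.21 with both cytokines, 4.82 and 4.96 with IL-7 alone and 5.64, 5.66, 5.75 and 5.62 ex vivo. Its change of 4.57 ± 0.24 (SE; 23.8-fold higher, adjusted p 1.02e-07) was the largest of these genes, with IL-7 alone at -0.78 from ex vivo. Gadd45g, a stress-response activator of p38 signalling, read 12.14 and 11.63 with both cytokines, 7.31 and 6.86 with IL-7 alone and 10.41, 9.73, 9.65 and 10.19 ex vivo. It thus lay below ex vivo in IL-7, at -2.91, and above it with both cytokines, at 1.90 ± 0.55 (SE; 3.72-fold higher, adjusted p 0.0232). Metrnl, a secreted meteorin-like factor, rose by 2.72, with IL-7 alone at -1.38 from ex vivo.

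Smaller excursions of the same kind were those of Xbp1, a transcription factor of the secretory pathway (1.57), Cst7, the cathepsin inhibitor cystatin F of cytotoxic cells (1.11), Map3k8, the kinase TPL2 (1.09), and Treml2, a receptor of lymphoid and myeloid cells (1.06). Klrd1 crossed the other way. This gene encodes CD94, which pairs with NKG2 chains, and it read 9.23 and 10.20 with both cytokines, 12.49 and 12.49 with IL-7 alone and 11.61, 11.25, 11.47 and 11.43 ex vivo. It was up by 1.05 in IL-7 (adjusted p 0.0499) and changed by -1.73 ± 0.35 (SE; 3.31-fold lower, adjusted p 0.00383) with both cytokines. With 1 array of both cytokines left out, the call against ex vivo was lost for Gadd45g (adjusted p up to 0.161), Map3k8 (0.259), Treml2 (0.172), Cst7 (0.168), Xbp1 (0.0752) and Klrd1 (0.0718), and kept for Cbr3 and Metrnl. The IL-4 effect kept its call in 7 of these 8 genes with any 1 array behind it left out. The call against ex vivo was also lost without ex vivo replicate 2 or 3 for Gadd45g, and without ex vivo replicate 2 or 4 for Map3k8.

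In 12 genes IL-4 pushed further in the direction IL-7 culture had taken. Myo6, an unconventional myosin, read 8.56 and 9.08 with both cytokines, 7.65 and 6.63 with IL-7 alone and 5.56, 5.61, 5.41 and 5.17 ex vivo. Both cytokines lay above IL-7 and IL-7 above ex vivo, and the whole change was 3.38 ± 0.29 (SE; 10.4-fold higher, adjusted p 9.53e-06). The transcript 5830468F06Rik rose by 3.48, of which 1.51 was there in IL-7. Pdlim4, a cytoskeletal adaptor, rose by 2.63, Ddc, the aromatic amino acid decarboxylase, by 2.49, Cacnb1, a calcium channel subunit, by 2.27, and Ikzf4, the Ikaros family factor Eos, by 2.04. Downward, Cpm, carboxypeptidase M, read 7.36 and 7.37 with both cytokines, 9.05 and 9.36 with IL-7 alone and 10.05, 9.83, 9.67 and 10.21 ex vivo, a change of -2.57 ± 0.21 (SE; 5.96-fold lower, adjusted p 7.50e-06), and Emb, a partner of monocarboxylate transporters, fell by 1.89 on the log2 scale. The 8 kept their call against ex vivo with any 1 array left out, and 2 of them (Cpm and Cacnb1) also kept that for IL-4.

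The 42 genes at the ex vivo level fell into 2 kinds. In 27, IL-7 alone differed from ex vivo (19.9% of all genes did) and both cytokines did not pass the test against ex vivo, so that with IL-4 the level was back within the margin (14 raised and 13 lowered by IL-4). In the other 15, IL-7 alone did not pass the test against ex vivo, and in 10 of these both cytokines did, by under 1 log2 unit. The median size of the IL-7 change over the 42 genes was 0.76, that of the IL-4 effect 1.15 and that of the remaining difference 0.38. For 11 genes the mean of the arrays with both cytokines lay within the range of the 4 ex vivo arrays. The number depended on the margin: 2 of the 249 genes lay within 0.58 log2 units of ex vivo by the same rule.

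Nop56, a core protein of the snoRNPs that modify ribosomal RNA, returned nearly to the ex vivo mean. It read 11.85 and 11.76 with both cytokines, 10.46 and 9.94 with IL-7 alone and 11.68, 11.81, 11.79 and 12.03 ex vivo. Both cytokines lay among the ex vivo arrays and IL-7 alone differed from their mean by -1.63, and the remaining difference was -0.02 (95% interval -0.68 to 0.64). Igf1r, the receptor of insulin-like growth factor 1, was brought back from above: it read 7.51 and 7.11 with both cytokines, 9.51 and 9.22 with IL-7 alone and 7.59, 7.90, 8.24 and 7.39 ex vivo, with a remaining difference of -0.47 (-0.997 to 0.06), at the very edge of the margin. Il1rl2, a subunit of the IL-36 receptor, read 6.08 and 6.07 with both cytokines, 7.54 and 7.28 with IL-7 alone and 6.42, 6.38, 5.83 and 6.22 ex vivo, and Atp1b1, the beta subunit of the sodium pump, read 10.33 and 10.41 with both cytokines, 11.74 and 11.81 with IL-7 alone and 10.74, 10.85, 10.70 and 10.16 ex vivo. Both were above ex vivo in IL-7 by 1.20 and 1.16, and within the margin with IL-4. For Atp1b1 2 dimmer probe sets lay below ex vivo past the test with both cytokines (-1.09 and -0.64, adjusted p 0.00304 and 0.0372).

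Against ex vivo, Fchsd2, an endocytic adaptor, stood at 0.35 with both cytokines and at -1.18 with IL-7 alone. Abca5, a lipid transporter, stood at 0.18 with both cytokines and 1.91 with IL-7 alone. Gm31679, an unnamed transcript, and Rhebl1, a RHEB-like GTPase, stood at -0.29 and -0.42 with both cytokines and at 1.62 and 0.92 with IL-7 alone. Of these 8 genes only Igf1r kept its IL-4 call with any 1 array left out. The margin was crossed narrowly by some: the farther end of the interval was 0.997 for Igf1r, 0.985 for Nup153 and 0.984 for Daam1 inside it, and 1.02 for Piezo1, Psmb10 and Os9 outside it. With the second medium array left out, Il7r, the IL-7 receptor, joined the genes at the ex vivo level. Il7r read 11.99 and 12.12 with both cytokines, 13.26 and 13.33 with IL-7 alone and 12.29, 12.22, 12.33 and 12.29 ex vivo. Both arrays with both cytokines lay just under all ex vivo arrays, with a difference of -0.22 (adjusted p 0.666), and IL-7 alone lay above them by 1.01 (adjusted p 0.03).

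**Figure D4:**
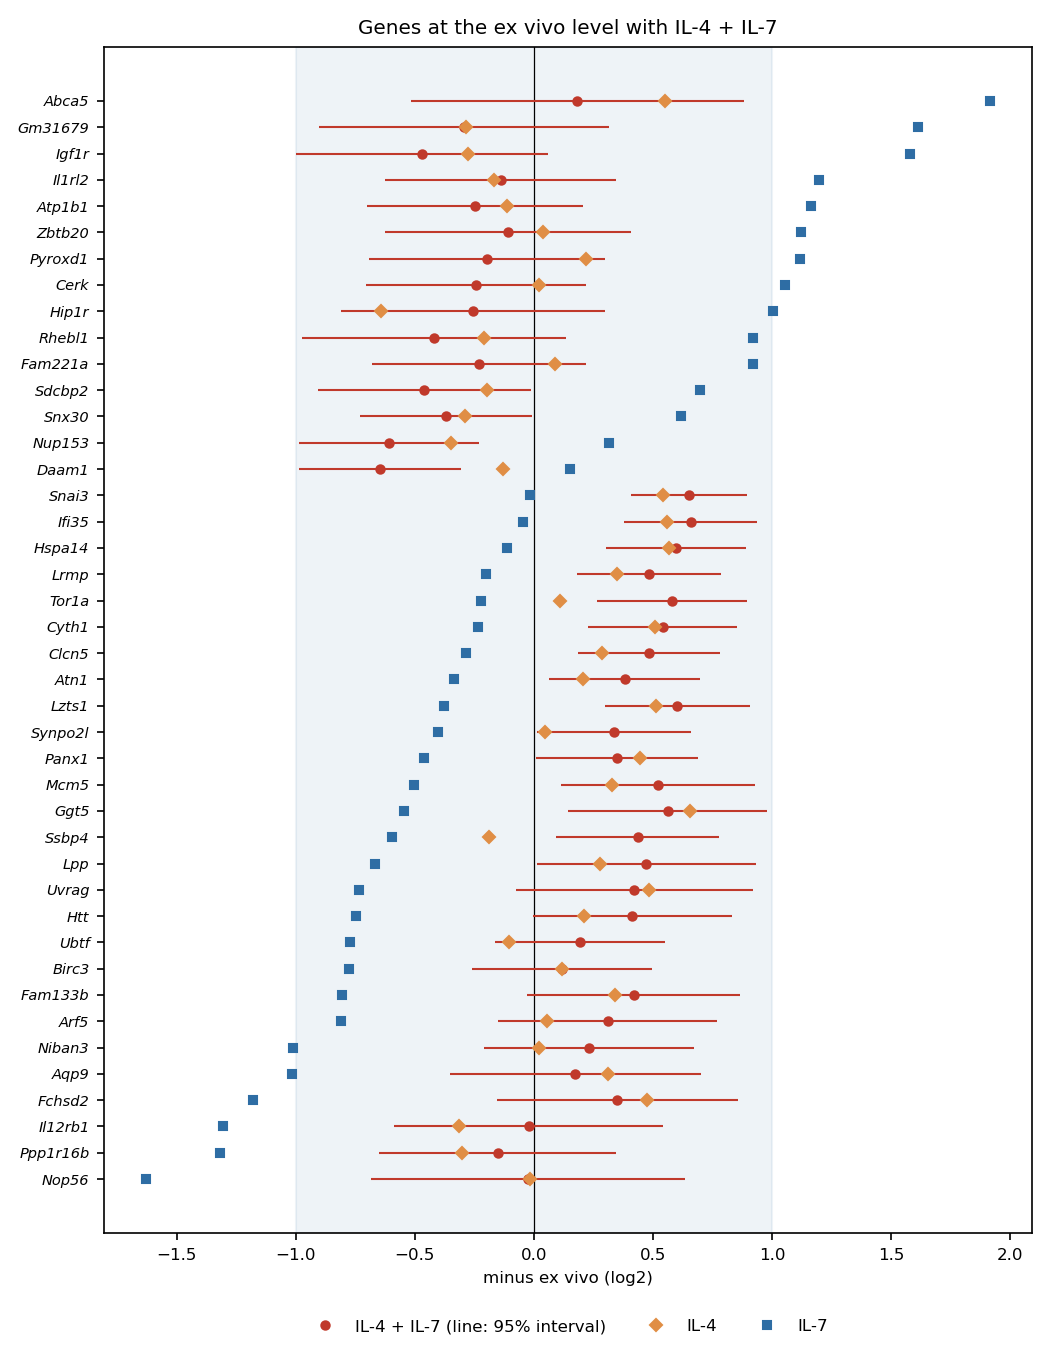
The 42 genes at the ex vivo level, each as a difference from ex vivo in log2 units with both cytokines (red, with the 95% interval), IL-4 alone (orange) and IL-7 alone (blue). The band is the margin of 1 log2 unit. Blue squares spread from -1.63 (Nop56) to 1.91 (Abca5), and all red points lie between -0.64 and 0.66.

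The 20 undetermined genes include large IL-4 effects, in genes whose difference from ex vivo missed the test while its interval reached beyond the margin. Gzma, the protease granzyme A, read 9.0 and 9.78 with both cytokines, 5.04 and 5.57 with IL-7 alone and 8.64, 8.03, 7.78 and 9.19 ex vivo. IL-7 alone differed from ex vivo by -3.10 (adjusted p 0.00505), and both cytokines by 0.98 (95% interval -0.20 to 2.17, adjusted p 0.234), with overlapping arrays. Its IL-4 call was lost without both-cytokine replicate 2 or IL-7 replicate 1 (adjusted p up to 0.0588). Il4ra, the IL-4 receptor alpha chain, read 12.74 and 12.53 with both cytokines, 9.73 and 9.45 with IL-7 alone and 11.06, 11.90, 11.38 and 11.49 ex vivo. It stood at -1.87 from ex vivo in IL-7 and lay 1.18 above ex vivo with both cytokines without passing the test (adjusted p 0.122), although both arrays lay above all ex vivo arrays. Without the second medium array, where Il4ra read 11.98 against 9.32 on its partner, the adjusted p was 0.00591 and Il4ra was among the genes that crossed. The IL-4 effect on Il4ra, 3.05, lost its call when any 1 of the 4 arrays behind it was left out (adjusted p up to 0.146). Chosen after their values were seen, Frmd4b, a FERM domain protein, read 11.12 and 10.84 with both cytokines, 4.22 and 3.81 with IL-7 alone and 9.81, 9.96, 10.21 and 10.11 ex vivo, and Dusp10, a phosphatase of JNK and p38, read 11.70 and 12.04 with both cytokines, 8.12 and 8.28 with IL-7 alone and 12.16, 12.33, 12.34 and 12.43 ex vivo. In IL-7 they differed from ex vivo by -6.01 and -4.11, and they stood within 1 log2 unit of ex vivo with IL-4 (0.96 and -0.44). Without the second medium array Dusp10 was placed at the ex vivo level and Frmd4b stayed undetermined.

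The gene lists showed which functions stood where. All lists are set against the 13.4% of genes higher and 9.38% lower (22.8% in either direction), and a median change of 0.05 over all genes tested. In either direction, 31.6% of the quiescence and homing factors passed the test, and 33.3% each of the cell cycle and MHC class I genes. These short lists stood near the share of all genes. Scaling moved these counts as well, by at most 3 genes in either direction with each array centred on its median and by at most 2 with cyclic loess. Other settings moved them further. The largest shift of a list count was 5 genes with only the groups compared in the fit. It was 4 genes with the replicate number as a block. Leaving out an array with both cytokines left that group without a replicate, and could not check these counts. The counts of short lists are therefore not firm. Members outside the naming rule are given to complete a count and were chosen after their values were seen.

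**Figure D5:**
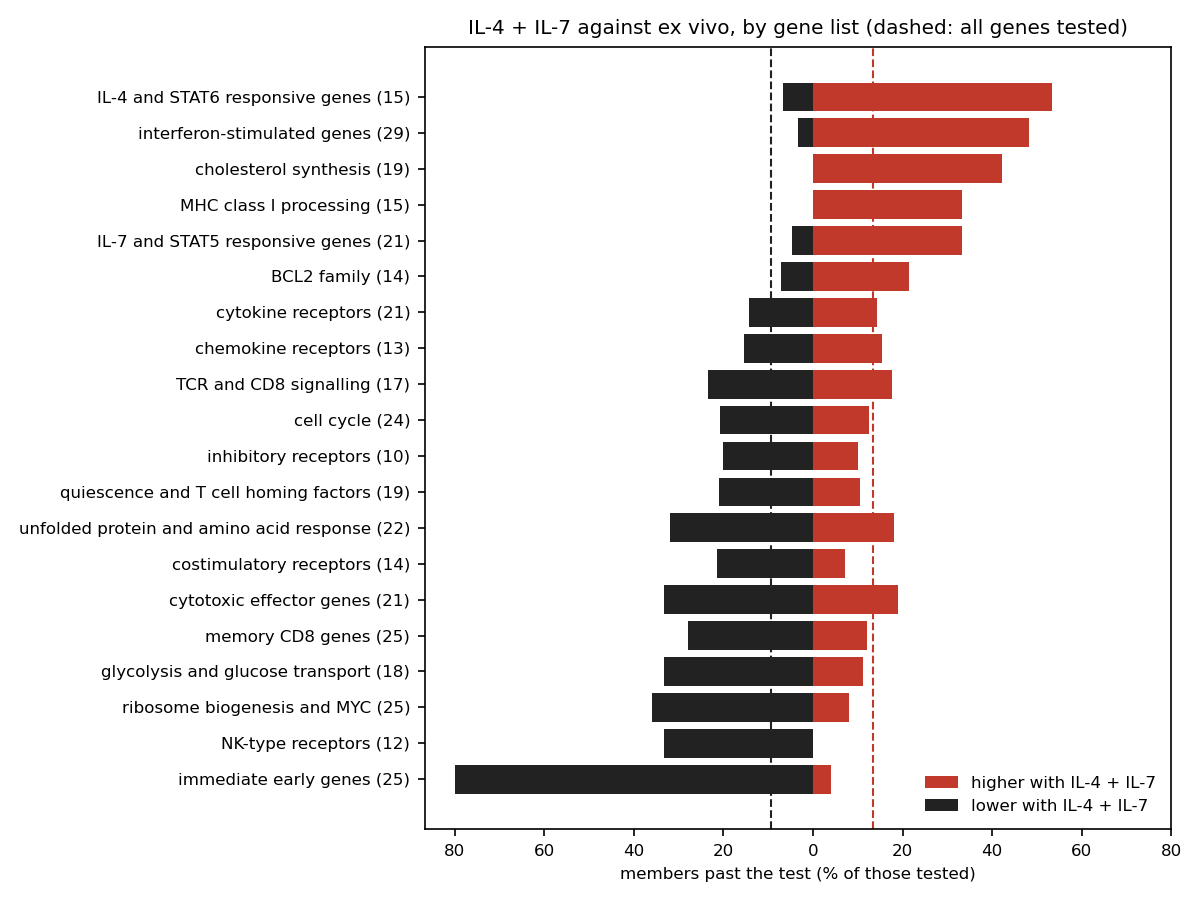
Share of the tested members of each gene list that passed the test between both cytokines and ex vivo, higher to the right in red and lower to the left in black, in percent. Dashed lines give the same shares over all genes, 13.4% higher and 9.38% lower. IL-4 and STAT6 responsive genes reach farthest to the right and immediate early genes farthest to the left.

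Genes known to respond to IL-4 and STAT6 were higher than ex vivo in 8 of 15 and lower in 1, with a median change of 1.18. In IL-7 alone none was higher than ex vivo and 7 were lower (8.85% of all genes were), and IL-4 raised 9 of the 15 above IL-7 (1.21% of all genes). Il2ra, the high-affinity IL-2 receptor chain, read 8.26 and 8.28 with both cytokines, 4.56 and 4.14 with IL-7 alone and 5.41, 5.26, 5.10 and 6.24 ex vivo, and changed by 2.76 ± 0.76 (SE; 6.79-fold higher, adjusted p 0.0178). Socs2, a STAT-induced inhibitor of cytokine signalling, read 8.19 and 6.92 with both cytokines, 5.53 and 4.33 with IL-7 alone and 5.28, 4.05, 5.21 and 4.78 ex vivo, and changed by 2.73 ± 0.39 (SE; 6.61-fold higher, adjusted p 5.49e-04). Socs1, of the same family, rose by 1.66, and Eomes, a T-box factor of memory and cytotoxic cells, read 9.11 and 9.09 with both cytokines, against 7.64, 7.16, 6.04 and 7.06 ex vivo, a change of 2.13 ± 0.57 (SE; 4.37-fold higher, adjusted p 0.016). Its IL-4 effect of 2.11 did not pass the test (adjusted p 0.142), and passed it with only the 12 memory arrays in the fit (0.028) and with the mean over its probe sets (0.045). Nfil3, a basic leucine zipper factor, had an IL-4 effect of 1.49 that did not pass the test. With only the 3 groups compared in the limma fit it passed (adjusted p 0.00144). With both cytokines Nfil3 was still lower than ex vivo, at -2.33. Leaving out 1 array with both cytokines ended the call of Eomes (adjusted p up to 0.111), Il2ra (0.121) and Nfil3 (0.155, also without ex vivo replicate 4). Without 1 of the 4 arrays behind it, the IL-4 call of Il2ra was lost as well (adjusted p up to 0.224), and that of Socs2 without both-cytokine replicate 1 or IL-7 replicate 2 (up to 0.117).

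Of 21 genes known to respond to IL-7 and STAT5, 7 rose and 1 fell, with a median of 0.35. Il2ra, Socs1 and Socs2, which are on both lists, were among those that rose. Bcl2, the survival factor, read 11.56 and 11.44 with both cytokines, 11.20 and 9.72 with IL-7 alone and 10.07, 9.45, 10.14 and 9.73 ex vivo. On this probe set, the brightest, the IL-7 arrays disagreed, 1 with the arrays of both cytokines and 1 with the ex vivo arrays. Only both cytokines passed the test against ex vivo there, at 1.65 ± 0.32 (SE; 3.13-fold higher, adjusted p 0.00319). The dimmer Bcl2 probe sets also rose past the test with both cytokines, by 4.16, 2.37, 3.24 and 1.14. Their IL-4 effects, in the same order, were 0.27, 1.84, -1.07 and 1.19, and only 1.84 passed the test (adjusted p 0.0215). Where the rise was 4.16 or 3.24, most or all of it was therefore there in IL-7 alone. How far IL-7 alone raised Bcl2 thus depended on the probe set. Myc, the growth regulator, rose by 1.47, and Osm, the cytokine oncostatin M, by 1.11, while the kinase Pim3 fell by 2.26, to 10.85 and 10.67 with both cytokines, against 13.13, 12.82, 13.01 and 13.11 ex vivo. Of 14 genes of the BCL2 family, Bcl2, Bik (1.97) and Bak1 (0.79) rose and Pmaip1, the pro-apoptotic NOXA, fell (-2.01). These 28.6% stood near the 22.8% of all genes past the test. The call of Pmaip1 was lost without replicate 1 of both cytokines (adjusted p 0.0703).

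Receptors of the NK type included falls and no rises. Of 12 tested, 4 fell (9.38% of all genes), none rose (13.4%) and the median was -0.61. With 33.3% past the test, against 22.8% of all genes, so short a list stood near the share of all genes. IL-4 added to IL-7 lowered 2 of them (0.596% of all genes) and raised none (1.21%). Klrk1, the activating receptor NKG2D, read 4.60 and 4.76 with both cytokines, 6.27 and 6.73 with IL-7 alone and 7.24, 7.18, 6.53 and 7.24 ex vivo. Both arrays with both cytokines lay below all IL-7 and ex vivo arrays, and the change was -2.37 ± 0.20 (SE; 5.16-fold lower, adjusted p 9.53e-06). IL-7 alone did not pass the test (-0.55, adjusted p 0.0699), and the IL-4 effect was -1.82 (adjusted p 7.52e-04). By the rule Klrk1 was thus placed with the genes that started from the ex vivo level. Its relative Klrd1, given above, was placed with those that crossed it. The IL-7 tests of both genes lay close to the threshold, on either side of it. A missed test does not show that Klrk1 stood at the ex vivo level in IL-7. Hcst, the NKG2D adaptor DAP10, read 9.53 and 9.72 with both cytokines, against 10.42, 10.29, 10.44 and 9.44 ex vivo, and its -0.52 did not pass the test (adjusted p 0.248). Klrc1, the inhibitory NKG2A chain, fell to 4.23 and 3.50 with both cytokines, against 5.72, 5.0, 5.02 and 5.55 ex vivo, and Tyrobp, the adaptor DAP12, to 4.52 and 4.22 with both cytokines, against 6.61, 4.78, 5.25 and 5.35 ex vivo. Both signals are near the filter, and the calls of Klrc1 (adjusted p 0.153 without replicate 2 of both cytokines) and Tyrobp (up to 0.226) rest on single arrays.

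Klrk1 was also 1 of 7 genes (0.0508%) whose change with both cytokines differed between memory and naive cells, by -2.35 ± 0.31 (SE; adjusted p 0.0154). In naive cells it read 4.11 and 4.05 with both cytokines, against 3.97 and 4.21 ex vivo, about the level of the filter. Klrd1 was not among the 7: in naive cells it read 8.31 and 8.28 with both cytokines and 11.54 and 11.05 ex vivo.

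Cytotoxic and effector genes were divided: of 21 tested, 4 rose and 7 fell, with a median of -0.64. In IL-7 alone none was higher than ex vivo (11.1% of all genes) and 11 were lower (8.85%). Set against IL-7 alone, IL-4 raised 3 (1.21% of all genes) and lowered 1 (0.596%). Ccl5, a chemokine stored as mRNA in memory cells, read 10.13 and 10.58 with both cytokines, 12.03 and 11.95 with IL-7 alone and 12.62, 12.06, 11.42 and 11.76 ex vivo, and changed by -1.61 ± 0.30 (SE; 3.05-fold lower, adjusted p 0.00228). The IL-7 arrays lay among the ex vivo arrays, and the IL-4 effect of -1.63 lost its call when any 1 of the 4 arrays behind it was left out (adjusted p up to 0.201). Ifng, interferon gamma, read 10.36 and 10.04 with both cytokines, 9.89 and 9.75 with IL-7 alone and 12.55, 11.92, 11.38 and 12.26 ex vivo, and changed by -1.83 ± 0.51 (SE; 3.55-fold lower, adjusted p 0.0195), with IL-7 alone as low (-2.21). Fasl, the death ligand, read 6.10 and 6.01 with both cytokines, against 9.67, 9.02, 9.17 and 9.54 ex vivo, a change of -3.30 ± 0.49 (SE; 9.83-fold lower, adjusted p 6.55e-04), also there in IL-7 (-3.74). Gzmb, granzyme B, read 6.73 and 6.26 with both cytokines, 4.38 and 4.12 with IL-7 alone and 7.35, 7.26, 6.37 and 7.32 ex vivo. It differed from ex vivo by -2.83 in IL-7 (adjusted p 0.00836) and did not pass the test with both cytokines (-0.58, 95% interval -1.87 to 0.71). Lta, lymphotoxin alpha, was the largest rise of the list, 2.01 ± 0.32 (SE; 4.03-fold higher, adjusted p 8.82e-04), with IL-7 alone at the ex vivo level (0.04). Ltb, its partner, rose by 1.05, and Nkg7 and Gzmm, 2 granule genes, fell by 1.21 and 1.51 on the log2 scale with the IL-7 change as large. The call of Ifng was lost with either array of both cytokines left out (adjusted p up to 0.158).

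Interferon-stimulated genes were higher in 14 of 29 and lower in 1, with a median of 0.94. In IL-7 alone 2 were higher than ex vivo (11.1% of all genes) and 4 lower (8.85%), with a median of -0.40. IL-4 raised 12 of the 29 (1.21% of all genes) and lowered none (0.596%). Zbp1, a sensor of nucleic acids, read 10.24 and 10.42 with both cytokines, 7.55 and 7.47 with IL-7 alone and 8.48, 8.04, 7.86 and 7.51 ex vivo, and changed by 2.36 ± 0.29 (SE; 5.14-fold higher, adjusted p 2.26e-04). Ifit1, a binder of foreign RNA, changed by 2.77 ± 0.37 (SE; 6.84-fold higher, adjusted p 3.61e-04), and Rtp4, an interferon-induced receptor transporter protein, by 2.17 ± 0.26 (SE; 4.5-fold higher, adjusted p 1.79e-04). Stat2, Gbp2, Ifi47 and Xaf1 rose by 1.56, 2.07, 1.77 and 2.06. Rsad2, viperin, was the exception at -1.86, with -1.97 in IL-7, and Irf7 (0.72) and Mx1 (-0.63) did not pass the test. Of 15 genes of MHC class I processing 5 rose and none fell, all 5 in peptide supply: the transporters Tap1 (1.17) and Tap2 (0.92) and the immunoproteasome subunits Psmb8 (0.72), Psmb9 (0.96) and Psmb10 (0.63). H2-K1 and H2-D1, heavy chains of class I molecules, each stood 0.02 from ex vivo. With each array centred on its median 3 of the 15 were higher and 1 lower. Calls of Tap2, Psmb8 and Psmb9 were lost with either array of both cytokines left out (adjusted p up to 0.151, 0.0971 and 0.173), and that of Psmb9 also without ex vivo replicate 3 or 4.

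Genes of the memory CD8 state were lower in 7 of 25 and higher in 3, with a median of -0.49. Ahnak, Vim and Cd44 fell. Vim, the filament protein vimentin, read 8.30 and 7.74 with both cytokines, 10.22 and 8.79 with IL-7 alone and 10.90, 10.63, 10.99 and 11.14 ex vivo, and changed by -2.89 ± 0.50 (SE; 7.41-fold lower, adjusted p 0.00162). Cd44, the adhesion receptor that marks memory cells, read 7.25 and 7.06 with both cytokines, against 9.73, 9.38, 10.14 and 9.99 ex vivo, a change of -2.65 ± 0.88 (SE; 6.28-fold lower, adjusted p 0.044). For Vim and Cd44 the IL-7 change (-1.41 and -1.08) and the IL-4 effect (-1.48 and -1.57) each failed the test where their sum passed. With only the 3 groups compared in the limma fit, both IL-4 effects did pass it (adjusted p 0.047 and 0.00734). The call of Cd44 against ex vivo was lost with any 1 of the 6 arrays left out, with changes of -2.79 to -2.54. Tbx21, the T-box factor T-bet, stood -0.39 from ex vivo and Il2rb, the shared IL-2 and IL-15 receptor chain, -1.25, neither past the test.

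Of 13 chemokine receptors 2 were higher and 2 lower. With 30.8% past the test, against 22.8% of all genes, so short a list stood near the share of all genes. Cxcr4, the receptor of CXCL12, read 5.73 and 6.89 with both cytokines, 6.38 and 7.24 with IL-7 alone and 10.10, 9.57, 10.42 and 9.88 ex vivo, and changed by -3.69 ± 0.54 (SE; 12.9-fold lower, adjusted p 5.81e-04), with nearly all of it in IL-7 alone. Cxcr6, a receptor of tissue-resident T cells, read 8.97 and 8.34 with both cytokines, 6.56 and 7.40 with IL-7 alone and 5.04, 4.70, 5.98 and 5.21 ex vivo, and changed by 3.42 ± 0.64 (SE; 10.7-fold higher, adjusted p 0.00236), with IL-7 alone about midway (1.75, adjusted p 0.0664). Ccr9, the gut-homing receptor, rose by 1.38, and Cxcr5, the follicle-homing receptor, fell by 0.95 on the log2 scale. Leaving out an array with both cytokines ended the calls of Ccr9 (adjusted p up to 0.0677) and Cxcr5 (0.177).

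Of 21 cytokine receptors 3 rose and 3 fell. Past the test were 28.6% of them, and 28.6% of the costimulatory and 30% of the inhibitory receptors below, against 22.8% of all genes. Il10ra, of the IL-10 receptor, rose by 1.92, mostly in IL-7 already (1.37), and Il21r, of the IL-21 receptor, fell by 2.12 on the log2 scale. Of 14 costimulatory receptors Cd28 (-2.46), Cd7 (-1.04) and Icos (-0.99) fell and Tnfrsf18, GITR, rose (0.74). Cd28 read 9.22 and 8.31 with both cytokines, against 11.03, 11.17, 11.65 and 11.08 ex vivo, with the groups apart. Of 10 inhibitory receptors Ctla4 fell to 11.44 and 11.28 with both cytokines, against 13.48, 13.43, 13.46 and 13.28 ex vivo (-2.05), Cd160 fell (-1.91) and Nt5e, the ectoenzyme CD73, rose (1.81). Pdcd1, the receptor PD-1, stood at -0.15 and did not pass the test. The calls of Icos, Tnfrsf18, Il21r and Cd160 were lost without an array of both cytokines (adjusted p up to 0.214, 0.234, 0.147 and 0.0867), and those of Icos and Tnfrsf18 also without 1 of the ex vivo arrays (replicate 3 for Icos, 1 or 4 for Tnfrsf18).

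Quiescence and homing factors moved little as a list: 2 of 19 rose, 4 fell and the median was -0.11. Klf2, which maintains quiescence and homing, read 11.51 and 11.41 with both cytokines, against 11.42, 11.23, 11.55 and 11.19 ex vivo. These arrays overlapped, and the difference was 0.11 (95% interval -0.38 to 0.61). Pik3ip1, an inhibitor of PI3 kinase, read 11.25 and 11.17 with both cytokines, 11.58 and 11.77 with IL-7 alone and 10.27, 9.58, 9.60 and 9.27 ex vivo, and stayed above ex vivo by 1.53. Tob1, an antiproliferative factor, fell by 1.92 on the log2 scale, with IL-7 alone at -0.75, and it belonged to the genes in which IL-4 added to the IL-7 change. The call of Pik3ip1 was lost without any of 3 arrays, either with both cytokines or ex vivo replicate 4 (adjusted p up to 0.12).

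Metabolic lists moved in different directions. Of 19 genes of cholesterol synthesis 8 rose and none fell, with a median of 0.39. Mvd, a decarboxylase of the mevalonate pathway, read 9.25 and 9.37 with both cytokines, 7.56 and 7.53 with IL-7 alone and 7.22, 7.0, 7.58 and 7.26 ex vivo, and changed by 2.05 ± 0.21 (SE; 4.13-fold higher, adjusted p 4.16e-05), and Fdft1, squalene synthase, rose by 1.48. With each array centred on its median 6 of the 19 were higher and 1 lower. Of 18 genes of glycolysis and glucose transport 2 rose and 6 fell. Hk2, a hexokinase, read 6.59 and 5.77 with both cytokines, against 8.70, 8.61, 9.17 and 10.04 ex vivo, a change of -2.96 ± 0.66 (SE; 7.76-fold lower, adjusted p 0.00617), and Slc16a1, the lactate transporter MCT1, changed by -2.90 ± 0.45 (SE; 7.48-fold lower, adjusted p 8.39e-04). Slc2a1, the transporter GLUT1, fell by 1.67 on the log2 scale, while Slc2a6, given above, rose. The falls of Hk2, Slc16a1 and Slc2a1 were all there in IL-7 alone (-2.91, -2.76 and -2.07). The call of Slc2a1 was lost with either array of both cytokines left out (adjusted p up to 0.0645), and that of Hk2 without replicate 2 (0.0951).

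Of 22 genes of the unfolded protein and amino acid response 4 rose and 7 fell. Dnajb9, a chaperone of the endoplasmic reticulum, fell by 2.69 on the log2 scale and Hspa5, the chaperone BiP, by 1.52, whereas Xbp1 rose. Of 25 genes of ribosome biogenesis and MYC 2 rose and 9 fell, with a median of -0.50. Nop58, which works beside Nop56 in the same snoRNPs, read 5.72 and 4.93 with both cytokines, 6.46 and 6.08 with IL-7 alone and 7.39, 7.57, 8.86 and 8.85 ex vivo, and changed by -2.84 ± 0.50 (SE; 7.15-fold lower, adjusted p 0.00179), so the 2 partners ended at different places relative to ex vivo. Wdr12, a ribosome assembly factor, read 10.17 and 10.30 with both cytokines, 10.38 and 10.76 with IL-7 alone and 8.25, 8.08, 8.02 and 8.29 ex vivo, and rose by 2.07. Of 24 cell cycle genes 3 rose and 5 fell: Pcna, the sliding clamp of replication, fell to 10.71 and 10.78 with both cytokines, against 12.34, 12.24, 12.20 and 12.69 ex vivo, and Ccne1, cyclin E1, rose by 1.69. Mki67, a marker of dividing cells, stood -1.0 from ex vivo and did not pass the test. Of 17 genes of T cell receptor and CD8 signalling 3 rose and 4 fell, with Cd8a at 13.22 and 12.86 with both cytokines, against 12.35, 11.91, 12.23 and 12.09 ex vivo, a change of 0.90 ± 0.20 (SE; 1.86-fold higher, adjusted p 0.00668). The calls of Cd8a (adjusted p 0.0878 without replicate 1), Wdr12 (0.0955) and Ccne1 (0.138) did not survive leaving out an array with both cytokines.

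The means of the IL-4 and medium arrays did not enter the differences that placed the genes, although their spread is part of the shared estimate behind the intervals and calls, and they give the IL-4 effect without IL-7. They may come from the same sorted populations. With the second medium array in, IL-4 alone differed from medium in the same direction in 6 of the 42 genes at the ex vivo level and 13 of the 19 that crossed. It did so in 103 of the 156 that started from ex vivo and 12 of the 12 that added, against 1.94% of all genes in either direction. With that array in, none moved the opposite way past the test. Without the second medium array 12, 17, 79 and 11 passed, counted in either direction, against 1.54% of all genes. The level with IL-4 alone stayed within -0.64 to 0.66 of ex vivo in the 42 genes. No gene passed the test between both cytokines and IL-4 alone (286 had an unadjusted p under 0.05), and 0 is also what the test gave between medium and ex vivo, where 1364 had an unadjusted p under 0.05 and 2256 (16.4%) passed without the second medium array. In naive cells IL-4 added to IL-7 moved 5 of the 42, 12 of the 19, 50 of the 156 and 4 of the 12 in the same direction past the test (1.26% of all genes), and 1 of the 12 the opposite way.

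Other probe sets of the same genes gave a further reading. Of the 20 genes with the largest rises and falls, 8 had 13 other probe sets above the filter, all 13 moved the same way and 9 passed the test. Over all 116 genes named by rule there were 102 others, of which 90 moved the same way and 58 did so past the test. With the mean over a gene's probe sets in place of its brightest one, Tap1 (0.23, adjusted p 0.154), Ccr9 (0.46, 0.126), Il2ra (1.62, 0.0518) and Msmo1 of cholesterol synthesis (0.50, 0.0998) no longer passed against ex vivo, and Tap1, Il2ra, Nop56, Abca5, Il1rl2, Myo6, Ikzf4, Emb, Tob1 and Ahnak no longer passed for IL-4 added to IL-7 (adjusted p 0.0581 to 0.45). By the same mean Atp1b1 passed against ex vivo (-0.52, adjusted p 0.0213). With each array centred on its median, Map3k8, Treml2, Tnfrsf18 and Tap2 missed the test against ex vivo (adjusted p 0.0516 to 0.0904).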

How the data were processed

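RNA from sorted CD8 T cells was amplified and hybridised to 18 Affymetrix mouse arrays, per the labels' protocols. The deposited log2 values were made by the authors with RMA, per the submitters' processing notes, which also name limma without a version or a role, so the deposited values are relative signals scaled together over the arrays. They were used as given (array medians 4.62 to 4.76). Of 45101 probe sets, 64 were controls, 34958 had 1 gene symbol in the platform annotation, 932 several and 9211 none. Each of 18193 genes was read from its brightest probe set on average, and 13769 with a value above 4.06 (the 40th percentile) on at least 2 arrays were tested. Means of 8 groups were fitted to all 18 arrays with limma 3.58.1 in R 4.3.3, with no block, after the same steps had been tested on simulated data. Samples were grouped by title. No label ties a replicate number to a sorted population, so numbers were not taken to pair arrays. The members, the 20 gene lists and the 8 marker lists were chosen with earlier results of these data known. Of 484 list entries, 415 were tested. Genes were named as the 10 largest rises and falls past the test with groups apart, the 8 largest IL-4 effects of each position, 15 genes set by name and up to 4 of each list. Alternatives changed the filter, probe set rule, scaling, arrays fitted, variance model, block and margin, and left out single arrays. Leaving out the second medium array for the lists and for the medium and IL-4 comparisons was chosen after seeing the data.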

Additional observations from a re-analysis of the deposited data

Results flagged for a closer look

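In 7 of the 116 named genes, 1 of the 4 ex vivo arrays stood far from the other 3, by a gap above Dixon's 95% critical value for the gap over the whole range, which chance gives in about 1 in 20 groups. The gap over the range was 0.927 for Fosb (12.04, 11.26, 11.29 and 11.23), 0.911 for Klrk1 (7.24, 7.18, 6.53 and 7.24), 0.904 for Gzmb (7.35, 7.26, 6.37 and 7.32), 0.897 for Bik (5.43, 5.42, 5.46 and 5.08), 0.849 for Hcst (10.42, 10.29, 10.44 and 9.44), 0.838 for Gm31679 (4.34, 4.87, 4.85 and 4.79) and 0.832 for Cd247 (10.65, 10.41, 10.62 and 10.66). For Klrk1 the array apart was the third, and its value of 6.53 still lay above both arrays with both cytokines.

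The change of Klrk1 with both cytokines also differed between memory and naive cells, by -2.35 on the log2 scale, with 4.60 and 4.76 in memory cells with both cytokines and a naive signal near the filter in every culture.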

How the results depend on the processing

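Against ex vivo, the count of genes higher or lower with both cytokines stayed within 1.5 times the reported 3134 under each filter, probe set rule, scaling and variance model tried. No named gene turned its direction past the test under any of them. That count was 1907 with the replicate number as a block and 864 to 3854 with 1 array left out, and that of IL-7 against ex vivo was 1369 with the block and 3 to 3705 with 1 array left out. A group left with 1 array was assumed to vary like the others. With 1 IL-7 array left, few genes passed against ex vivo. The count that started from the ex vivo level then rests on missed tests and is no check of that place. The IL-4 effect in IL-7 called 538 genes without the second medium array, 710 when only the 3 groups compared were fitted, and 76 to 538 with 1 array left out. The block left that count at 255 but not for the same named genes: Abca5, Nop56, Rhebl1, Tnfrsf18 and Tap1 lost the IL-4 call (adjusted p 0.0522 to 0.0809) and Eomes, Ccr9, Cxcr5 and Ifit3 gained it (0.00818 to 0.0445). Against ex vivo, 16 named genes lost their call under the block (0.0596 to 0.197), among them Gadd45g, Cst7, Map3k8, Treml2, Cd44, Wdr12 and Psmb9, and by position 1 gene was part way back, 5 crossed, 5 added and 32 were undetermined. The labels give a shared number only, and whether same-numbered arrays came from 1 sorted population was not tested. Deviations of same-numbered arrays with both cytokines correlated at -0.0288 and 0.345 with ex vivo, 0.251 with IL-7, 0.435 with IL-4 and 0.0289 with medium. The mean log2 signal of the red cell precursor markers went with the number in 3 cultures, at 8.69, 8.72 and 8.62 in replicate 1 and 5.52, 5.78 and 5.65 in replicate 2 with both cytokines, IL-7 and IL-4, and stood at 8.24 and 7.62 in medium. The genes at the ex vivo level numbered 2 with a margin of 0.58, 93 with the mean over probe sets, 67 with cyclic loess, 190 without the second medium array, 276 with only the groups compared and 1 to 190 with 1 array left out. In the fit of only the groups compared, 38 came part way back, 35 crossed, 251 started from the ex vivo level and 91 added. With 1 array left out, 0 to 27 came part way back, 0 to 25 crossed, 69 to 210 started from the ex vivo level, 0 to 58 added and 2 to 30 were undetermined, against 50 undetermined with the margin of 0.58 and 36 with each array centred. The upper ends for IL-7, the IL-4 effect and these positions, other than the undetermined, came without the second medium array, which also gave 2256 genes between medium and ex vivo. The cause of these shifts was not tested, apart from the wider spread of the medium pair given above. Over the named genes, 1968 of the values against ex vivo under these settings stayed on their side of the threshold, 115 lost their call and 3 gained one, and for the IL-4 effect 1943 stayed, 114 lost and 29 gained. A pair of arrays in each cultured group limits all of these results, and a signal near 4.06 gives no firm size of a change.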

Other observations

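The 7 genes whose change with both cytokines differed between memory and naive cells include 6 besides Klrk1, named here after their values were seen. None of the 6 passed the test in memory cells, and limma's adjusted p is that of the difference between the cell types. Against ex vivo, the log2 level of Ptpn3, a tyrosine phosphatase, with both cytokines was 0.59 in memory cells and 3.73 in naive cells (adjusted p 0.00353). H2-Q2, a class I molecule of the Qa family, stood at 0.03 in memory cells and 2.04 in naive cells (adjusted p 0.0348). Papss2, an enzyme of sulfate activation, stood at 0.15 in memory cells and 1.99 in naive cells (adjusted p 0.0348). Dhrs3, a retinal reductase, stood at 0.23 in memory cells and 1.80 in naive cells (adjusted p 0.0348). Oas3, an interferon-induced activator of RNA decay, stood at 0.51 in memory cells and -1.38 in naive cells (adjusted p 0.0401), and Armcx4 at -0.08 in memory cells and -2.10 in naive cells (adjusted p 0.0348). The memory signals of H2-Q2 and Armcx4 lay under the filter of 4.06 in both groups.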
